A study of Homo sapiens with 36 samples.

Results

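The HIF-2α/1α and HIF-1α/2α chimeras were compared with each other by anti-V5 Cut&Run in 786-O cells, with 3 samples of each chimera, 6 of the 36 samples of the series. They were chosen by their sample titles, and only peaks on the autosomes, X and Y entered (hg38). 786-O is a human clear cell renal carcinoma line without a working VHL protein and without functional HIF-1α, so its own HIF-2α is stable in normal oxygen. HIF-2α/1α joins residues 1 to 365 of HIF-2α to residues 364 to 826 of HIF-1α, and HIF-1α/2α joins residues 1 to 363 of HIF-1α to residues 366 to 870 of HIF-2α. The N-terminal part holds the DNA-binding and dimerization domains and is called the DBD here, and the C-terminal part is the intrinsically disordered region, or IDR. Both chimeras carried an N-terminal V5-HaloTag joined by a short linker, and the weak L30 promoter drove them in stable lines.

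The full-length exogenous HIF-1α and HIF-2α lines, made in the same way, gave the parent proteins (3 samples each). A homozygous knock-in clone (KIN, clone A31) with V5 and Halo on the N-terminus of endogenous HIF-2α and untagged wild-type (WT) cells gave 3 samples each as references. All 4 exogenous lines also kept the untagged endogenous HIF-2α, which the V5 antibody does not see. Each protein was represented by 1 line, so protein and line cannot be told apart, and nothing in the labels says that replicates came from separate cultures beyond their numbers. The p-values therefore measure the spread between these samples.

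HIF-α subunits pair with HIF-1β and bind the hypoxia response element (HRE), a short motif with the core ACGTG or GCGTG. HIF-1α is best known for genes of glycolysis, and HIF-2α is known as the main driver of growth in clear cell renal carcinoma. The DBDs of both proteins are much alike and the IDRs differ more, with transactivation domains and the residues that oxygen sensing modifies. The chimeras exchange these parts, so a site that HIF-2α/1α prefers over HIF-1α/2α may go with the HIF-1α IDR or with the HIF-2α DBD, and the difference between the full-length proteins tells these apart. Where the IDR sets the difference, HIF-1α exceeds HIF-2α as well, and where the DBD sets it, HIF-2α exceeds HIF-1α.

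The sequences of 9 regions are printed as examples from the groups described below. Only regions with an HRE core within 50 bp of the mean summit could be printed. Of the regions called in all 6 chimera samples, 33.0% had a core that near the highest summit. The sequences therefore do not represent whole groups. At FOXL1 and ENO1 the core lay 40 and 39 bp from the mean summit. Each sequence was read from hg38 around the HRE core nearest the mean summit. The core is in capitals, on the strand that reads it as ACGTG or GCGTG. NUDT14 (chr14:105204765-105204805, + strand) and METRNL (chr17:83102100-83102140, + strand) name regions called only in HIF-2α/1α. FOXL1 (chr16:86735197-86735237, - strand) had the largest summit coverage difference towards HIF-1α/2α. By summit coverage, IGF1R (chr15:98777163-98777203, - strand) and C10orf95 (chr10:102450605-102450645, - strand) were stronger in HIF-2α/1α. By the same measure ZNHIT1 (chr7:101218076-101218116, - strand) went with the HIF-2α DBD and ENO1 (chr1:8879249-8879289, + strand) with the HIF-1α DBD. TGFA (chr2:70596991-70597031, + strand) and ADM (chr11:10308202-10308242, + strand) were strong in both chimeras.
NUDT14: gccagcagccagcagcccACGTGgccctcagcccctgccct
METRNL: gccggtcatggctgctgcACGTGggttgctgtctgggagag
FOXL1: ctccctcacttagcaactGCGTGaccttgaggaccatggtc
IGF1R: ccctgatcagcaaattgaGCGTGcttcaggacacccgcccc
C10orf95: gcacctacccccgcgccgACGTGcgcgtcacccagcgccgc
ZNHIT1: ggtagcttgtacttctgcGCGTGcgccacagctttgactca
ENO1: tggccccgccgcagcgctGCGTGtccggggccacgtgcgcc
TGFA: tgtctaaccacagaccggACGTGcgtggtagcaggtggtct
ADM: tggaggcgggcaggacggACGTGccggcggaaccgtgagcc

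Both chimeras gave long peak lists. HIF-2α/1α had 16977, 20808 and 12371 peaks in replicates 1, 2 and 3, and HIF-1α/2α had 13060, 18999 and 11679. Within every replicate number the HIF-2α/1α list was the longer one, but the groups overlapped. The difference in log2 peak number was 0.20 (two-sided exact permutation test, p = 0.6, adjusted p = 0.7 over 7 tests of this kind). With 3 samples against 3 this exact permutation test cannot go below p = 0.1. The inferred depth was between 0.293 and 0.625 fragments per base in HIF-2α/1α and between 0.284 and 0.410 in HIF-1α/2α, with medians of 18 to 41 fragments at a summit. The untagged WT cells gave 392, 9508 and 743 peaks.

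The promoter share and GC content of the lists had higher means in HIF-2α/1α, but neither difference passed the test. Peaks were counted as promoter peaks where no more than 1 kb separated the summit from the transcription start site (TSS) of a protein-coding gene. Promoter peaks made up 30.8, 29.3 and 30.0% of the HIF-2α/1α lists and 29.3, 24.3 and 28.5% of the HIF-1α/2α lists. The means were 30.0% ± 0.731 and 27.4% ± 2.68 (SD, n = 3), a difference of 2.65 percentage points (exact permutation test, p = 0.2, adjusted p = 0.35). The GC content of the 200 bp around the summit was 54.6, 54.3 and 54.2% in HIF-2α/1α and 54.0, 51.0 and 53.7% in HIF-1α/2α. These groups did not overlap, and the difference of 1.51 points reached the smallest p that the test allows (exact permutation test, p = 0.1, adjusted p = 0.233). Without HIF-1α/2α replicate 2 the differences were 1.11 points for promoters and 0.570 points for GC.

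Both chimeras were found at HRE cores. ACGTG or GCGTG lay on either strand less than 50 bp away from the summit in 25.5 to 27.4% of HIF-2α/1α peaks and in 22.7 to 26.3% of HIF-1α/2α peaks, against 13.5 to 15.0% in equally wide windows placed 1 kb upstream and downstream. The HRE excess over these flanks was 11.8 ± 1.07 points for HIF-2α/1α and 11.0 ± 1.60 points for HIF-1α/2α (SD, n = 3), and the difference of 0.744 points was within the spread (exact permutation test, p = 0.5, adjusted p = 0.7). It turned to -0.180 points without HIF-1α/2α replicate 2. The AP-1 motif, TGACTCA or TGAGTCA, which other transcription factors read, had an excess of 5.85 ± 0.237 and 6.03 ± 0.782 points (exact permutation test, p = 0.7, adjusted p = 0.7).

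**Figure D1:**
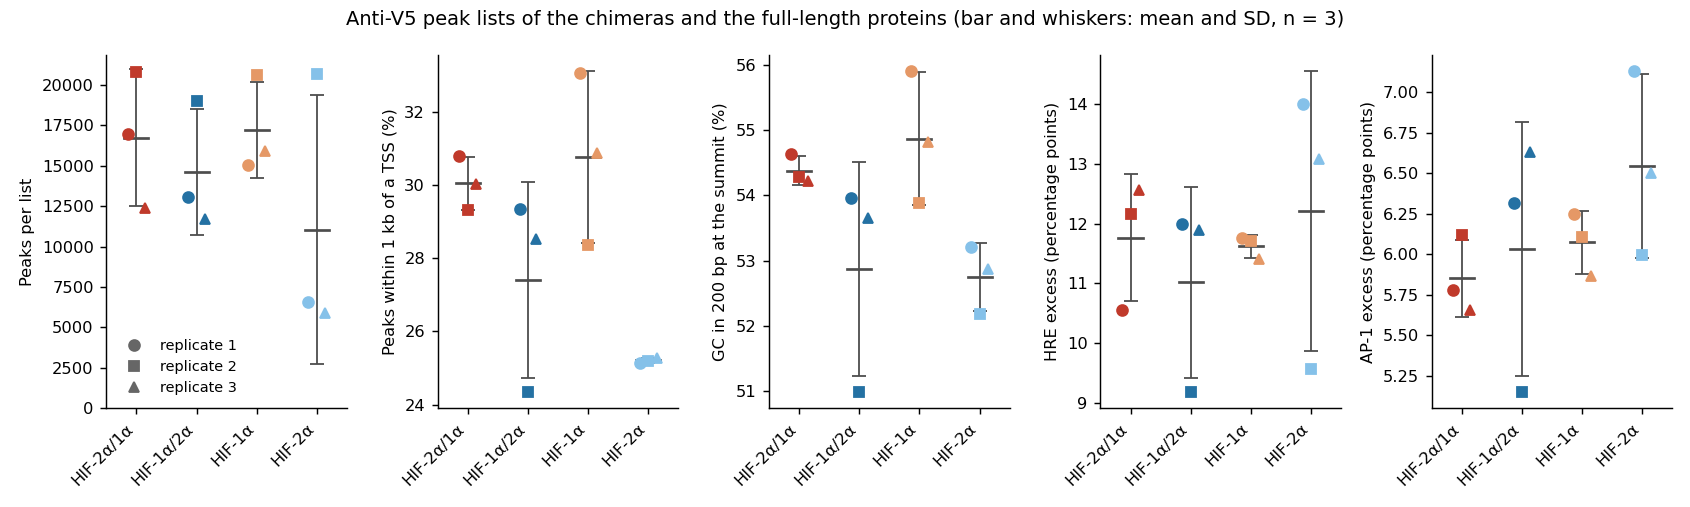
Peaks per list, share of promoter peaks, GC content, HRE excess and AP-1 excess (y axes) for the chimeras and the full-length proteins (x axis). Symbols are replicates, and the bar and whiskers are the mean and SD of 3 samples. HIF-2α/1α lists hold 29.3 to 30.8% promoter peaks and HIF-1α/2α lists 24.3 to 29.3%, and HIF-1α/2α replicate 2 is the lowest of the 6 in GC, HRE excess and AP-1 excess.

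The lists of the chimeras overlapped in part. After merging all 18 lists and removing regions called in at least 2 WT samples, 13113 regions were called in at least 3 of the 6 chimera samples, and 4809 of these (36.7%) in all 6. The overlap of called regions (Jaccard index) averaged 0.524 between samples of the same chimera and 0.475 between samples of different chimeras, with ranges of 0.502 to 0.590 and 0.436 to 0.532. The difference of 0.0494 reached the smallest p possible (exact permutation test, p = 0.1, adjusted p = 0.233).

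A total of 648 regions (4.94% of the 13113) were called in all 3 HIF-2α/1α and in no HIF-1α/2α samples, and 189 regions (1.44%) were called the other way round. Leaving out 1 sample at a time asks less of a region, and gave 803 to 1773 and 216 to 495 regions. Not being called is not the same as not being bound: the median fold enrichment of these regions was 7.89 and 7.59, little different from the 7.93 and 7.45 of regions that the other chimera had in 1 sample. Regions called in all 6 samples had a median of 13.1.

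The HIF-1α/2α-only regions lay farther from the TSS of protein-coding genes. Only 19.6% of them were at promoters, against 33.2% of the HIF-2α/1α-only regions and 33.3% of all 13113, and the median distance to a TSS was 36307 bp, against 6477 and 8599 bp. Their GC content was 48.9%, against 56.2 and 55.5%. HRE cores were found in 25.9% and 27.6% (28.7% of all regions), against 11.6% and 16.4% in the flanks (15.0% for all). The HRE excess was thus 14.3 and 11.2 points (13.7 for all). The AP-1 motif was found in 6.35% and 7.25% (8.07% of all). The nearest genes numbered 179 and 618, of which 13 had a region of each kind.

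None of the 10 strongest HIF-2α/1α-only regions lay at a promoter. At PCP4L1 (ENSG00000248485.2; chr1:161260803-161262149, intronic, 2782 bp from the TSS) the fold enrichment was 28.2, 53.5 and 28.6 in HIF-2α/1α, and no HIF-1α/2α sample had a peak. HIF-1α had 5.78, 57.1 and 17.4 there, and HIF-2α was called in 2 samples with 14.4 and 6.60. At METRNL, which encodes the secreted protein meteorin-like, HIF-2α/1α had 39.1, 44.2 and 20.7, HIF-1α 5.99, 38.9 and 17.7, and HIF-2α 12.4 and 6.53 in 2 of its samples. The other 8 regions were nearest to NUDT14, LMX1B, TUBA8, KLHL29, GADD45G, MTA1, MTBP and ARHGEF3. Their distances reached 156481 bp at MTBP, where the region lay in an intron of SNTB1. All 10 were called in every HIF-1α sample, where 47.7, 70.2 and 54.0% of the 648 and 72.2, 84.7 and 76.4% of all 13113 were. At all of them but GADD45G, HIF-2α was called in some sample too. An HRE core lay within 50 bp of the highest summit in 5 of them, against 27.6% of the 648. At least 2 KIN samples called 7 of them, against 11.1% of the 648.

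The strongest HIF-1α/2α-only regions followed no single parent. At MS4A10 (ENSG00000172689.2; chr11:60788941-60790083, intronic, 4507 bp from the TSS) the fold was 50.0, 65.6 and 24.2 in HIF-1α/2α, 6.26, 9.00 and 6.20 in HIF-1α, and 10.4 and 10.0 in 2 HIF-2α samples. At ANKFN1 (ENSG00000153930.13; chr17:56164320-56165864, in an intron) it was 21.0, 34.0 and 31.7 in HIF-1α/2α and 12.3, 71.5 and 7.97 in HIF-2α, with no peak in HIF-1α. At CDH2, the gene of N-cadherin, it was 22.1, 38.3 and 23.6 in HIF-1α/2α and 9.84, 30.1 and 22.6 in HIF-1α, with no peak in HIF-2α. So ANKFN1 was shared with the parent that has the same IDR, and CDH2 with the parent that has the same DBD. The other 7 regions were nearest to TNFAIP8L3, FAM174B, HECTD2, ICE1, SH2D1B, ZC3HC1 and ALK, at up to 233984 bp (ICE1). Of the 10, 1 held an HRE core near the summit, where 25.9% of the 189 did, and 0 were called in at least 2 KIN samples, where 3.17% of the 189 and 33.6% of all 13113 were.

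The exogenous parents' own lists, which did not enter the choice of these regions, showed a small lean towards the IDR. The knock-in line, described below, did not share it. HIF-1α samples called 47.7, 70.2 and 54.0% of the HIF-2α/1α-only regions and 38.1, 63.5 and 47.6% of the HIF-1α/2α-only regions. HIF-2α samples called 12.3, 64.4 and 10.5% of the former and 10.6, 60.8 and 11.1% of the latter. The share was thus higher for the HIF-2α/1α-only regions by 7.57 ± 1.76 points in HIF-1α and by 1.55 ± 2.07 points in HIF-2α (SD, n = 3). The difference of 6.02 points between the parents lay in the direction of the IDR, with no overlap between the groups (exact permutation test, p = 0.1, the smallest possible, adjusted p = 0.233). It was 3.10 points (exact p = 0.6) with all lists cut to the same 5906 peaks, and it moved with the chimera samples that chose the regions. It was 0.440, 0.266 and 3.46 points without HIF-2α/1α replicate 1, 2 or 3, and 13.1, 11.8 and 13.1 points without HIF-1α/2α replicate 1, 2 or 3.

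In both sets, most regions that differed by at least 2 calls between the parents had more calls in HIF-1α. Regions called in at least 2 more HIF-1α than HIF-2α samples made up 30.4% of the HIF-2α/1α-only set and 28.6% of the HIF-1α/2α-only set, against 27.7% of all 13113. Regions called in at least 2 more HIF-2α samples made up 2.47% and 7.41%, against 1.5%. Both parents had at least 2 of 3 calls at 10.2% and 7.41% (41.6% of all), and 5.09% and 6.35% were found in no parent sample (2.27% of all). The HIF-2α lists of replicates 1 and 3 held only 6590 and 5906 peaks, which limits how many regions can count towards HIF-2α.

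The knock-in line, with HIF-2α at its own level, called the HIF-2α/1α-only regions more often than the HIF-1α/2α-only regions in each of its 3 samples: 6.33 against 1.06%, 25.2 against 13.8% and 16.7 against 5.82%. The mean difference was 9.17 ± 3.39 points in KIN (SD, n = 3), beside 7.57 points in HIF-1α and 1.55 points in exogenous HIF-2α. KIN has both parts of HIF-2α, so with it as the HIF-2α parent there was no lean towards the IDR. The reason was not tested. The WT samples called 0, 5.86 and 0.617% against 0, 6.88 and 0%. Both sets were called less often in KIN than the chimera regions at large, of which 21.0, 48.5 and 39.2% were called.

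**Figure D2:**
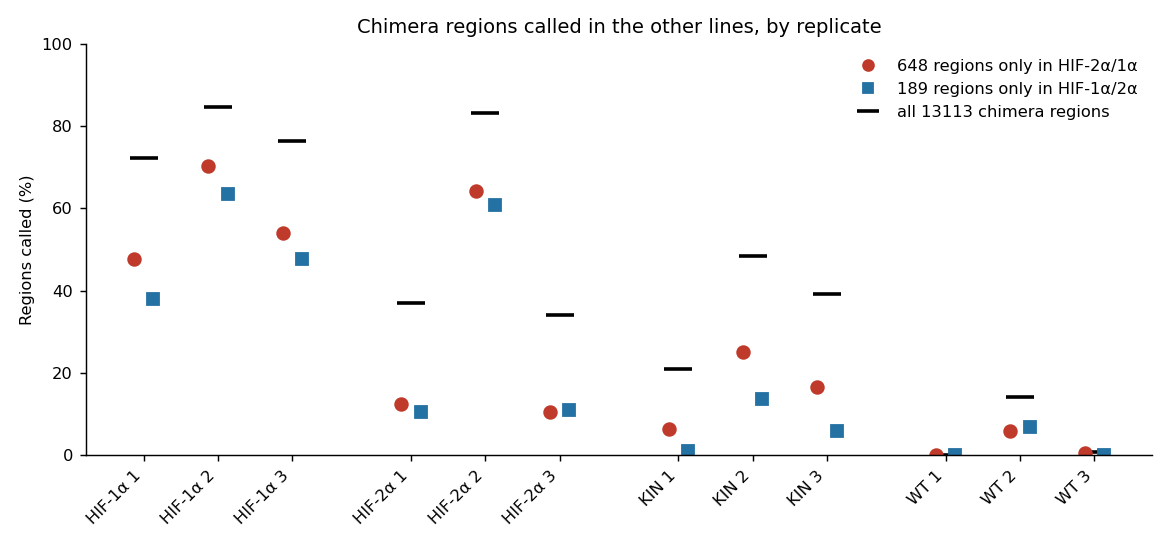
Share of regions called (y axis, percent) in each replicate of the other lines (x axis). Circles are the 648 HIF-2α/1α-only regions, squares the 189 HIF-1α/2α-only regions and dashes all 13113 chimera regions. In HIF-1α the circles lie above the squares by 6.39 to 9.59 points, and in HIF-2α by -0.617 to 3.51 points.

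Regions called in all 6 chimera samples were compared in strength, with a pair of measures. The deposited fold enrichment divides the fragments at the summit by the local background from the IgG control, and summit coverage is the number of fragments at the summit, recovered from the list, over the genome mean. Both were quantile-normalized as log2 values and tested with limma over all 4809 regions. Regions called in only 1 chimera cannot enter this test. By fold, 50 regions (1.04%) were higher in HIF-2α/1α, and 64 (1.33%) were higher in HIF-1α/2α. Leaving out 1 sample at a time gave 22 to 38 and 30 to 48. By summit coverage, 693 (14.4%) and 713 (14.8%) were, and these included 42 of the 50 and 60 of the 64.

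Summit coverage was the more repeatable measure. Its correlation across the 4809 regions was 0.890 to 0.941 between replicates and 0.745 to 0.791 between the chimeras, against 0.654 to 0.705 and 0.531 to 0.621 for the fold. The median standard error of a chimera difference was 0.22 on the log2 scale for coverage and 0.48 for fold. The background that enters the fold had a correlation of 0.467 to 0.568 between replicates, much like that of 0.449 to 0.568 between the chimeras. This background moved with the fold calls: the median log2 background difference, HIF-2α/1α minus HIF-1α/2α, was -0.74 at regions called for HIF-2α/1α by fold and 0.55 at those called for HIF-1α/2α, against 0.14 over all regions. For the coverage calls it was 0.35 and -0.07, so there the background was higher where coverage was higher. Its part in either set of calls was not tested.

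By both measures the share of promoter regions was higher among regions stronger in HIF-2α/1α than among those stronger in HIF-1α/2α. By fold, 35 of 50 (70.0%) were promoter regions against 10 of 64 (15.6%), where 33.6% of the 4809 were. By coverage the shares were 47.8% and 19.2%, with a GC content of 60.2% and 52.4% (56.2% of all 4809). HRE cores were found in 38.2% and 24.5% (33.0% of all), and the AP-1 motif in 5.77% and 11.6% (8.21% of all). In KIN, 80.1% and 60.2% of the coverage calls were found in at least 2 samples (67.2% of all). These shares describe the called sets.

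Of the 10 largest fold differences towards HIF-2α/1α, 7 were at promoters. The largest was at PLCD1 (ENSG00000187091.14; chr3:38024615-38026054, 391 bp upstream of a TSS, in an intron of another transcript), the gene of a phospholipase C. The fold was 62.5, 44.7 and 30.0 in HIF-2α/1α and 10.2, 7.67 and 4.19 in HIF-1α/2α, and the groups did not overlap. The log2 difference was 2.49 ± 0.48 (SE, limma adjusted p = 0.000482), and 1.54 ± 0.19 by coverage (adjusted p = 0.000179). At IGF1R, the receptor of insulin-like growth factor 1 (chr15:98776657-98777469, intronic), the fold was 30.0, 115 and 37.1 against 11.5, 9.50 and 6.75, a difference of 2.31 ± 0.48 (adjusted p = 0.00127). At KPNB1, the nuclear import receptor importin β1 (chr17:47649081-47650878, 5′ UTR), it was 40.5, 116 and 57.1 against 7.54, 17.6 and 13.3, a difference of 2.25 ± 0.48 (adjusted p = 0.0015). The others were nearest to NDUFC1, a subunit of respiratory complex I, TMEM50B, EXOSC2, SET, NFIL3, a transcriptional repressor, MXD4, a MYC antagonist, and KXD1. Their differences were 2.01 to 2.26. The EXOSC2 region lay 12326 bp from the TSS of that RNA exosome subunit, in a coding exon of PRDM12. All 10 were also higher by coverage, by 0.76 to 1.76. All were called in at least 2 KIN samples, as were 94.0% of the 50 and 67.2% of all 4809.

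Towards HIF-1α/2α the differences were larger and mostly distal. At ARHGAP26 (ENSG00000145819.18; chr5:143215942-143217997, intron), the fold was 7.51, 22.6 and 5.61 in HIF-2α/1α and 74.0, 133 and 33.7 in HIF-1α/2α. The difference was -3.02 ± 0.48 (limma adjusted p = 8.27e-06). At TCF7L2, a transcription factor of the Wnt pathway (chr10:113096518-113097581, intron), it was 7.36, 40.3 and 5.38 against 59.8, 79.3 and 33.7, and these groups overlapped in 1 sample (-2.49 ± 0.49, adjusted p = 0.000557). At the promoter of SLC31A1, the copper importer (chr9:113220412-113222191), it was 4.94, 5.45 and 8.17 against 39.8, 35.9 and 16.7 (-2.37 ± 0.48, adjusted p = 0.000898). HIF-1α had 33.8, 21.4 and 26.8 at SLC31A1 and HIF-2α was called there in 1 sample with 5.95. The others were nearest to ARHGAP18, DENND3, FOXL1, the mucin gene MUC1, ERI1, PDE1A and STAU2, with differences of -2.98 to -2.35. The FOXL1 region lay between genes, 156628 bp from the TSS. All 10 were lower in HIF-2α/1α by coverage too, with differences of -3.25 to -1.38. At least 2 KIN samples called 6 of them, against 54.7% of the 64.

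The full-length proteins were then used to tell the IDR from the DBD, over the 2566 regions called in all 12 exogenous samples. The IDR difference is HIF-1α minus HIF-2α and the DBD difference is HIF-2α minus HIF-1α, so that both point towards HIF-2α/1α, and their sum is the chimera difference in an additive limma model. By fold, 20 regions (0.779%) went with the HIF-1α IDR and 30 (1.17%) with that of HIF-2α, while 20 (0.779%) went with the HIF-2α DBD and 52 (2.03%) with that of HIF-1α. Summit coverage gave 560 (21.8%) and 513 (20.0%) for the IDR, and 362 (14.1%) and 364 (14.2%) for the DBD. Of the variance between line means in coverage, 51.9% went with the IDR, 40.6% with the DBD and 7.48% with neither, where replicate spread alone would give each 5.67%. For fold these shares were 40.3, 40.8 and 18.9%, and replicate spread alone gave 19.4%.

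The effect of each part was positively related between its partners, more closely by coverage than by fold. The IDR difference beside the HIF-2α DBD (HIF-2α/1α minus HIF-2α) correlated with that beside the HIF-1α DBD (HIF-1α minus HIF-1α/2α) at r = 0.749 by coverage and 0.362 by fold, across 2566 regions. The DBD difference on the HIF-1α IDR and on the HIF-2α IDR correlated at r = 0.694 and 0.366. The 2 sides of each correlation shared no samples, and each point is 1 region, with its own base composition, in all 4 lines. The chimera difference and the parent difference, which would be equal if only the IDR mattered and opposite if only the DBD did, were nearly unrelated at r = 0.123 by coverage and -0.006 by fold.

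**Figure D3:**
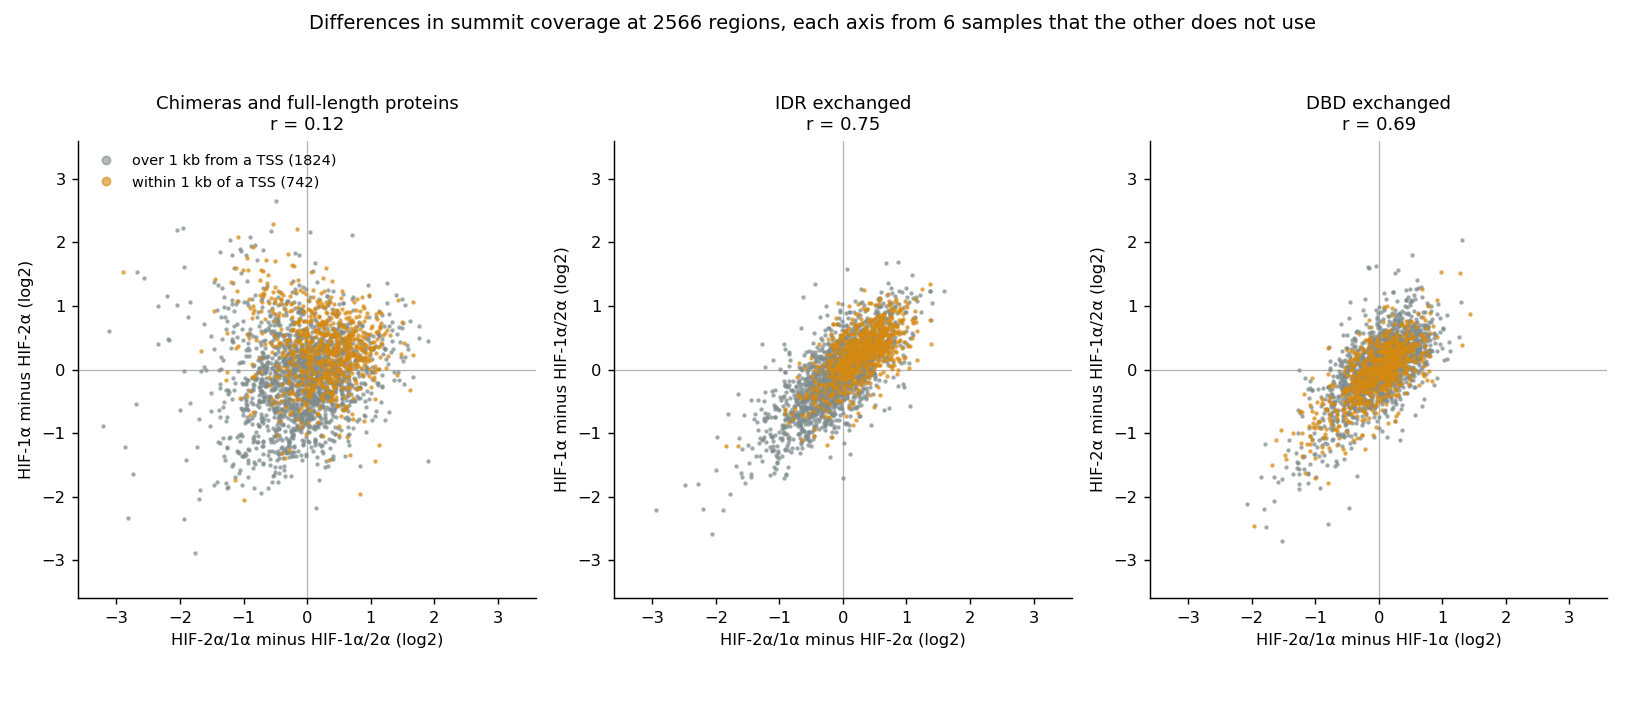
Log2 differences in summit coverage at 2566 regions. Left, HIF-2α/1α minus HIF-1α/2α (x) against HIF-1α minus HIF-2α (y); middle, the IDR difference on the HIF-2α DBD (x) and on the HIF-1α DBD (y); right, the DBD difference on the HIF-1α IDR (x) and on the HIF-2α IDR (y). The points form a round cloud on the left (r = 0.123) and follow the diagonal in the other panels (r = 0.749 and 0.694).

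Chimera-preferring regions of both directions held some that followed the IDR and some that followed the DBD. Of the 693 regions with more coverage in HIF-2α/1α, 432 were called in all 12 samples. Of these, 250 passed the test for the HIF-1α IDR alone, 82 for the HIF-2α DBD alone, 64 for both and 36 for neither. Of the 713 regions with more coverage in HIF-1α/2α, 379 were called in all 12, and 177 passed for the HIF-2α IDR alone, 137 for the HIF-1α DBD alone, 53 for both and 12 for neither. At 3 of the 432 and 19 of the 379 a part passed in the opposite direction. These are counted within the groups given, so alone refers to the direction of the chimera difference only. The tests of the parts include the chimera samples themselves. The parent samples on their own had the sign that follows the IDR at 304 of the 432 (70.4%, against 51.0% of all 2566 regions) and at 207 of the 379 (54.6%, against 49.0%). By fold the same counts were 18 of 33 (54.5%, against 49.8%) and 10 of 39 (25.6%, against 50.2%), so the few regions called for HIF-1α/2α by fold mostly followed the DBD.

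The IDR difference went with the promoter share by both measures, and the DBD difference did not do so in one direction. Regions stronger with the HIF-1α IDR by coverage were promoter regions in 53.0% of cases, with 62.2% GC and an HRE core in 42.0%. Those stronger with the HIF-2α IDR were at promoters in 7.60%, with 48.7% GC and an HRE core in 26.1%, and lay at a median of 37095 bp from a TSS against 629 bp. By fold 15 of 20 and 3 of 30 regions were at promoters. For the DBD the measures differed in direction: promoters made up 18.5% of regions stronger with the HIF-2α DBD and 31.9% of those stronger with the HIF-1α DBD by coverage, but 9 of 20 and 17 of 52 (32.7%) of the regions called by fold. From the lowest to the highest decile of the IDR difference the promoter share went from 5.84 to 52.0%, and along the deciles of the DBD difference from 33.9 to 19.1%. By fold it went from 8.17 to 55.9% along the IDR and from 30.0 to 27.0% along the DBD. Promoters among all 2566 regions were 28.9%.

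**Figure D4:**
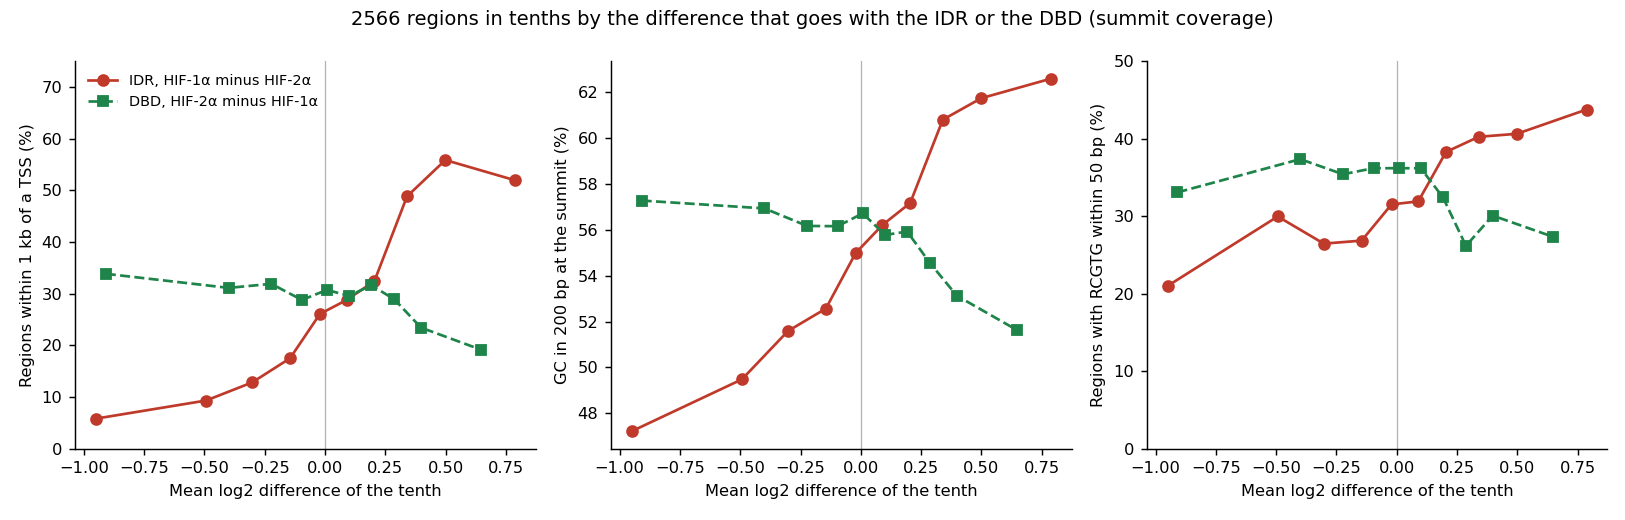
Share of promoter regions, GC content and share of regions with ACGTG or GCGTG near the summit (y axes) in deciles of the 2566 regions, placed at their mean log2 difference in coverage (x axis). Circles are deciles of the IDR difference and squares deciles of the DBD difference. Along the IDR the promoter share goes from 5.84% to 52.0% and the GC content from 47.2% to 62.6%, and along the DBD the promoter share goes from 33.9% to 19.1%.

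The same contrast was seen per sample. The mean log2 coverage of promoter regions minus that of distal regions was 0.19, -0.02 and 0.00 in HIF-2α/1α and 0.23, 0.03 and 0.05 in HIF-1α, the lines with the HIF-1α IDR. It was -0.20, -0.33 and -0.22 in HIF-1α/2α and -0.23, -0.42 and -0.35 in HIF-2α, the lines with the HIF-2α IDR. Each sample with the HIF-1α IDR lay above each sample with the HIF-2α IDR, whichever DBD it had. The fold gave the same order of groups, with -0.05 to 0.16 in the former and -0.37 to -0.24 in the latter. This is the per-sample view of the regions above and no separate evidence.

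Individual genes illustrate both kinds of region. EGLN3 encodes an oxygen-sensing prolyl hydroxylase, and its region in an intron 62525 bp from the TSS (chr14:34012448-34014369) went with the IDR. The summit coverage was 54.1, 167 and 58.1 in HIF-2α/1α and 26.9, 49.5 and 27.0 in HIF-1α, against 199.9, 402 and 165 in HIF-1α/2α and 193, 459 and 154 in HIF-2α. The IDR difference was -2.32 ± 0.16 (limma adjusted p = 1.75e-08) and the DBD difference 0.57 ± 0.16 (adjusted p = 0.0146). SLAMF7, a receptor of immune cells (chr1:160747231-160749333, intron), had 31.6, 91.3 and 47.8 in HIF-2α/1α and 39.2, 93.7 and 64.1 in HIF-1α, against 199.9, 525 and 301 in HIF-1α/2α and 174, 504 and 256 in HIF-2α. Its IDR difference was -2.58 ± 0.15 (adjusted p = 3.64e-09). Towards the HIF-1α IDR, C10orf95 differed by 1.36 ± 0.15 (adjusted p = 3.57e-06) and PLCD1 by 1.12 ± 0.13 (adjusted p = 4.24e-06). By fold the IDR difference of C10orf95 did not pass (0.90 ± 0.34, limma adjusted p = 0.123).

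ANGPTL4, a secreted inhibitor of lipoprotein lipase, showed the other pattern at its promoter (ENSG00000167772.12; chr19:8363029-8364962, 82 bp from the TSS). Coverage was 42.8, 72.0 and 37.6 in HIF-2α/1α and 39.7, 69.0 and 39.5 in HIF-2α, the lines with the HIF-2α DBD. It was 122, 182 and 148 in HIF-1α and 322, 476 and 208 in HIF-1α/2α, so the HIF-1α DBD had more coverage with either IDR. The DBD difference was -2.22 ± 0.18 (limma adjusted p = 2.5e-07), the IDR difference -0.68 ± 0.18 (adjusted p = 0.00599), and the chimera difference -2.88 ± 0.26 (adjusted p = 2.01e-05). ENO1, the glycolytic enzyme enolase, differed likewise at its promoter (chr1:8877993-8881246), by -1.29 ± 0.14 for the DBD (adjusted p = 3.08e-06) and 0.28 ± 0.14 for the IDR (adjusted p = 0.121). By fold the ENO1 DBD difference did not pass (-0.71 ± 0.34, limma adjusted p = 0.278). ZNHIT1 went with the HIF-2α DBD (1.40 ± 0.13, adjusted p = 3.86e-07), as did LMF1, a chaperone of lipases, in its intron (1.67 ± 0.21, adjusted p = 1.35e-05). These regions had the largest differences of their kind by coverage, or were in a fixed gene list.

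**Figure D5:**
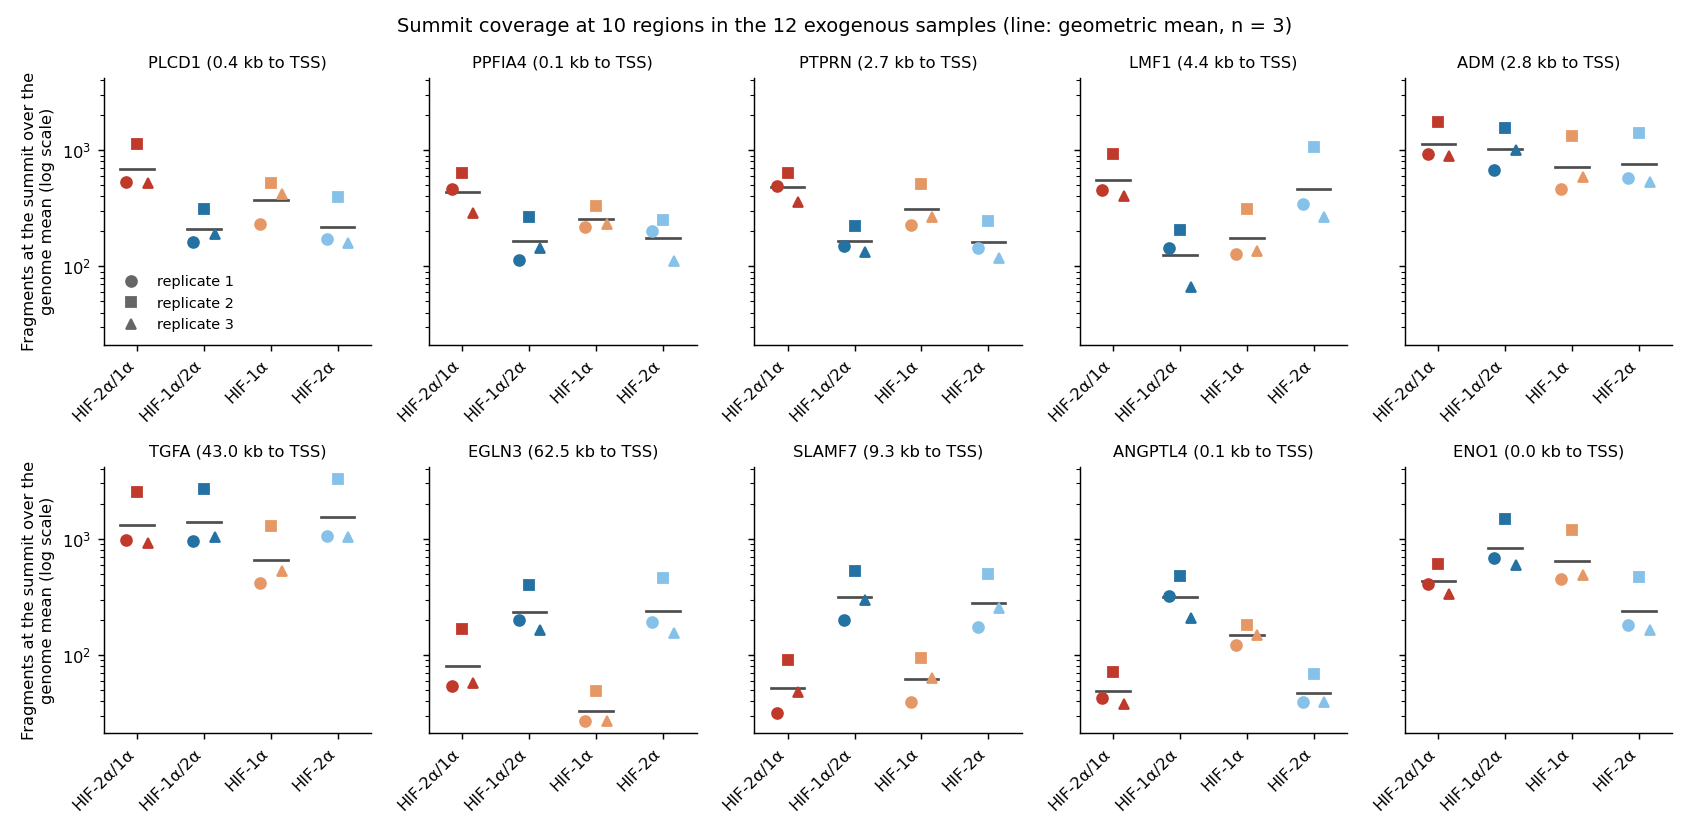
Summit coverage over the genome mean (y axis, log scale) at 10 regions in the 12 exogenous samples (x axis, line). Symbols are replicates and the line is the geometric mean of 3. EGLN3 and SLAMF7 are low in both proteins with the HIF-1α IDR (26.9 to 167), ANGPTL4 is low in both with the HIF-2α DBD (37.6 to 72.0), and ADM is near level in the chimeras (683 to 1734).

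The promoter of CA9, the hypoxia-induced carbonic anhydrase, was called only in the lines with the HIF-1α DBD among the exogenous lines (ENSG00000107159.14; chr9:35673555-35674772, with the summit in a coding exon, 56 bp from the TSS). HIF-1α/2α had a fold of 12.1, 21.0 and 14.1 and HIF-1α 18.0, 21.2 and 13.6, and 0 of 3 HIF-2α/1α and 0 of 3 HIF-2α samples were called. In KIN, which has the HIF-2α DBD, 1 sample called it. The HIF-2α lists of replicates 1 and 3 were short (6590 and 5906 peaks), which limits what a missing call can show. A region 13156 bp from SLC2A1, the glucose transporter GLUT1, was called in all HIF-2α/1α samples (8.67, 9.19 and 6.89), in 2 HIF-2α samples (8.06 and 10.2) and in no sample with the HIF-1α DBD. Near PFKP, a phosphofructokinase, a region was called in all HIF-1α/2α samples (6.67, 7.88 and 5.62), in 2 HIF-2α samples and in none with the HIF-1α IDR. NDRG1 had a region of the same kind, with 10.4, 7.84 and 9.39 in HIF-1α/2α. These 4 were all the chimera-only regions near the listed HIF target genes: 2 of 52 regions of the upper glycolysis list called in at least 3 chimera samples, 1 of 60 of the growth and lipid list and 1 of 12 of the pH list, with 0 in the others, where 4.94% and 1.44% of all 13113 were chimera-only.

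The listed genes leaned towards HIF-1α/2α in several groups, with few calls by fold. The lists were taken as regions whose nearest TSS, within 100 kb, was of a listed gene, and they are read against the 14.4% and 14.8% of all regions that passed by coverage. Among genes of glucose uptake and upper glycolysis, 2 of 32 regions had more coverage in HIF-2α/1α (both at PFKFB3) and 10 in HIF-1α/2α (at SLC2A1, SLC2A3, HK2, PFKP and PFKFB3), with a median difference of -0.01. In lower glycolysis it was 0 and 3 of 10 (at GAPDH, ENO1 and LDHA), with a median of -0.48. Among angiogenic and vasoactive factors it was 0 and 7 of 15, with a median of -0.56, and among growth and lipid genes linked to HIF-2α 0 and 10 of 25, with a median of -0.38. The median over all 4809 regions was 0.03. By fold, the calls in all 9 lists were ANGPTL4, EGLN3, PLIN2 and LOXL2, each towards HIF-1α/2α.

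Genes of oxygen sensing and feedback had 2 regions higher in HIF-2α/1α (near EPAS1) and 5 higher in HIF-1α/2α of 24, genes of collagen hydroxylation 0 and 3 of 8, and genes of pH control 1 and 1 of 6. Genes of pyruvate fate and mitophagy had 3 higher in HIF-2α/1α (MXI1, a MYC antagonist, in 2 regions, and LONP1) and 0 higher in HIF-1α/2α, of 10. Where all 12 samples were called, coverage calls can be read against the 20.0% of all 2566 regions stronger with the HIF-2α IDR, 21.8% with that of HIF-1α, 14.1% with the HIF-2α DBD and 14.2% with that of HIF-1α. The growth and lipid list had 10 of 19 regions stronger with the HIF-2α IDR, 1 with that of HIF-1α, 3 with the HIF-2α DBD and 7 with that of HIF-1α. In the same order the oxygen-sensing list had 7, 1, 1 and 2 of 16, the angiogenic list 5, 0, 0 and 4 of 10, and the upper glycolysis list 3, 3, 3 and 7 of 25.

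At the strongest regions of some well-known targets the chimera difference did not pass the test. ADM, the vasodilator adrenomedullin (chr11:10307004-10310142), had a coverage of 922, 1734 and 885 in HIF-2α/1α and 683, 1551 and 1008 in HIF-1α/2α, a difference of 0.14 ± 0.20 (limma adjusted p = 0.629). The growth factor TGFA (chr2:70595959-70598296) had 979, 2512 and 916 against 960.5, 2682 and 1047, a difference of -0.02 ± 0.19 (adjusted p = 0.951). At TGFA the parts opposed each other, with -0.41 ± 0.12 for the IDR (adjusted p = 0.0104) and 0.39 ± 0.12 for the DBD (adjusted p = 0.0207). VEGFA, the endothelial growth factor, differed by -0.56 ± 0.21 (adjusted p = 0.0615) and PDK1, a kinase that restrains pyruvate dehydrogenase, by -0.40 ± 0.25 (adjusted p = 0.248).

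TGFA was 1 of the 6 example loci of the study. Of the others, PPFIA4 had more coverage in HIF-2α/1α, with 467, 631 and 290.5 against 115, 264 and 145 (1.21 ± 0.25, limma adjusted p = 0.00355), and so did PTPRN (1.32 ± 0.26, adjusted p = 0.00297). HSD3B7, an enzyme of bile acid synthesis, had less, with 113, 175 and 78.6 against 209.6, 423 and 241 (-1.50 ± 0.23, adjusted p = 0.0007). At PGK1, a glycolytic kinase, the difference was -0.48 ± 0.26 (adjusted p = 0.184), and none of these 4 passed by fold (adjusted p from 0.0742 to 0.297). No region called in at least 3 chimera samples had PLXNA2 as its nearest gene. In its neighbourhood, a region named for CD34 (chr1:208007501-208008566, 96773 bp from the CD34 TSS) was called in 3 of 3 samples of each chimera. HIF-1α called it in 2 samples and HIF-2α in 3. Whether it is the PLXNA2 enhancer of the study was not tested.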

How the data were processed

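The members and gene lists were chosen with earlier results of these data known. The authors aligned reads to hg38 with Bowtie2 2.3.4.1, keeping fragments between 10 and 700 bp, and ran MACS2 per sample against the IgG sample of the same line and replicate (q threshold 0.01, maximum gap 400 bp, duplicates kept), then removed blacklisted regions with BEDTools 2.28.0. The deposited lists give the fold enrichment (a ratio of pileup plus 1 to background plus 1), the −log10 p and the −log10 q at each summit. They state no read counts. Fragments, background and depth were recovered from fold and −log10 p, and 99.8 to 100% of peaks with a −log10 p under 100 matched within 0.001 (99.9 to 100% of all peaks within 0.01). In HIF-2α/1α replicate 2 the pileup was scaled by 0.949.

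Peaks were merged over the 18 anti-V5 lists (overlap of 1 bp), and regions in at least 2 samples and in fewer than 2 WT samples were kept. TSS came from GENCODE release 44, and a region was named by the protein-coding gene with the nearest TSS. Groups of 3 were compared with two-sided exact permutation tests, adjusted by Benjamini-Hochberg, and regions with limma 3.58.1 (R 4.3.3) on quantile-normalized log2 values, called at an adjusted p under 0.05. Scripts used Python 3.11.15 with SciPy 1.17.1 and were tested on simulated data. Named regions were the 10 with the highest fold in each chimera-only set, the 10 largest fold differences in each direction, and per gene list the called regions and the strongest regions of 2 genes. Regions named for their coverage, and the sequences shown, were chosen after their values were seen. Alternatives were a stricter q, equal list lengths or depth, other windows, filters and normalization, summit coverage in place of fold, a replicate block, and each sample left out.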

Additional observations from a re-analysis of the deposited data

Results flagged for a closer look

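The KIN samples, which were not part of the comparison of the chimeras, called 6.33, 25.2 and 16.7% (median 16.7%) of the regions found only in HIF-2α/1α, where the untagged WT samples called 0, 5.86 and 0.617%. The KIN share was above the WT share in each replicate number. Regions called in at least 2 WT samples had been left out and the WT lists were shorter, which lowers the WT shares by construction, and KIN called 21.0, 48.5 and 39.2% of all 13113 chimera regions, so nothing particular to the HIF-2α/1α-only regions follows from it.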

How the results depend on the processing

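The direction of the differences in peak number, promoter share, GC content, Jaccard index and parent preference was the same under each alternative run. The HRE difference turned to -0.168 with TACGTG as the motif and ranged from -0.180 (without HIF-1α/2α replicate 2) to 1.35 with 1 sample left out, and the AP-1 difference from -0.624 to 0.118 (without HIF-1α/2α replicate 3). The chimera-only regions numbered 3525 and 1344 when 2 more samples of one chimera sufficed, 318 for HIF-1α/2α with lists of equal length, and 803 to 1773 and 216 to 495 with 1 sample left out, since fewer samples then decide. Among these, HIF-2α/1α had 1181 without its replicate 1, 1773 without its replicate 3 and 1264 without HIF-1α/2α replicate 2. HIF-1α/2α had 490, 324 and 495 without its replicates 1, 2 and 3, and 299 and 465 without HIF-2α/1α replicates 1 and 2. The limma counts of 50 and 64 became 693 and 713 by summit coverage, 23 towards HIF-2α/1α without promoters, and 22 to 38 and 30 to 48 with 1 sample left out. They fell to 22 and 33 without HIF-2α/1α replicate 1, to 22 and 30 without its replicate 3, to 33 towards HIF-2α/1α without its replicate 2, to 28 towards HIF-2α/1α without HIF-1α/2α replicate 1 and to 42 towards HIF-1α/2α without HIF-1α/2α replicate 2. The IDR count of 50 became 19 with equal lists, 1073 by coverage, 23 without promoters and 25 to 67 with 1 sample left out (29 without HIF-2α/1α replicate 1, 25 without HIF-1α/2α replicate 1, 33 without HIF-2α replicate 2). The DBD count of 72 became 38, 726 and 47 in the same order and 54 to 106 with 1 sample left out. The chimera-parent correlation was 0.123 by coverage, -0.041 without promoters and -0.041 to 0.034 with 1 sample left out. The cause of these changes was not tested. Calls that need the summit inside the region gave the same values by construction, since the regions are merged peaks, so this setting tests nothing.

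Same-numbered chimera samples deviated together weakly (r = 0.075, 0.082 and 0.022 by fold, 0.178, 0.199 and 0.035 by coverage). Across numbers r was -0.077 to 0.001 by fold and -0.187 to 0.026 by coverage. Replicate 2 had the longest list in every line. The main tests did not pair samples by number, and whether samples of a number share a batch was not tested. With the replicate block the limma counts were 82 and 101, the IDR and DBD counts 67 and 89, and the exact tests, which cannot go below 0.25, gave p = 0.25 or 0.75. A region that was not called may still be bound, and low fragment numbers limit what a list can show.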

Other observations

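By chromosome, the coverage calls were uneven in a few places. On chromosome 14, 2 of 101 regions were higher in HIF-2α/1α and 22 higher in HIF-1α/2α, with a median difference of -0.18 on the log2 scale. On chromosome 19 these counts were 47 and 17 of 235, with a median of 0.23. They were 45 and 28 of 198 on chromosome 16 (median 0.17), 24 and 11 of 156 on chromosome 22 (0.14) and 14 and 4 of 74 on X (0.12). Over all 4809 regions 14.4% and 14.8% were called, and the 24 of 156 on chromosome 22 are near that share. Differences in copy number between the lines were not tested.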
